A study of Mus musculus with 4 samples.

Results

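The 52 genes described here encode the machinery that makes ribosomes: abundant nucleolar proteins, the small nucleolar ribonucleoproteins (snoRNPs), maturation factors of the small and large ribosomal subunits, and RNA polymerase I with its initiation factors. They were taken by name from a list of nucleolar, snoRNP, processome and RNA polymerase I genes, and all 52 were found among the 50600 genes counted. Their RNA was sequenced in 4 libraries of T cells, primary cells from the mouse strain C57BL/6NJ, which form 1 group and carry the biological replicate numbers 1 to 4, each with 1 technical replicate. According to the headers the cells were Th0, activated, at 16 h; Th0 denotes helper T cells stimulated in the absence of polarising cytokines. The sex was not collected and the age is unknown, and the labels place 4 biosamples under a shared donor identifier without saying whether these were separate animals. The p-values below therefore measure only the spread between these samples, which may be technical, and with a single group no condition was contrasted. The questions were how much RNA of each gene the libraries held, how the parts of each complex compared within a library, and how closely the replicates matched.

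RNA polymerase I transcribes the ribosomal DNA repeats in the nucleolus into a long precursor RNA. Box C/D and box H/ACA snoRNPs modify that precursor, and a large assembly on its front part, the small subunit processome, folds and cuts it, while other factors build the large subunit. T cells that leave rest after activation enlarge their nucleoli and make many ribosomes before they divide.

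The libraries carried the RNA of CD4 T cells and little of the other lineages given here. All 7 T cell markers were detected, meaning at least 1 TPM in every library, where TPM is the count over the gene's exonic length scaled to a fixed total. Cd4 lay at 749 ± 30.2 TPM (SD, n = 4, as for all means below) and Cd8a at 0.776 ± 0.380 TPM. All 4 activation genes were detected, among them Myc at 939.7 ± 51.1 TPM. None of the 4 macrophage and neutrophil, 2 NK cell, 2 stromal and 2 erythroid markers passed that limit, the highest mean among them being that of Lyz2 at 0.0825 ± 0.165 TPM, and S100a8 and Hba-a1 were at 0 counts in every library, which allows up to 0.0474 to 0.0649 CPM (3 counts of a library, counting error only). The libraries held 46192242 to 63313389 counted read pairs.

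All 52 genes were detected, against 45.2% of nuclear protein-coding genes (9840 of 21751), and most were abundant. Their median level was 263 TPM (quartiles 158 and 356), where the median detected coding gene stood at 32.7 TPM. Above the 75th percentile of detected coding genes lay 48 of the 52, and above the 90th percentile 36. A level of 100 TPM was reached by 47 genes, while 1 gene, Wdr74, lay below 20 TPM. Their TPM summed to 19211 in replicate 1, 18837 in replicate 2, 19485 in replicate 3 and 19421 in replicate 4. They took 2.19 ± 0.0259% of the read pairs counted on genes. The highest sum, in replicate 3, and the lowest, in replicate 2, lay close together beside the range over genes. In bulk RNA, fewer cells that express a gene and less of its RNA per cell cannot be told apart.

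**Figure D1:**
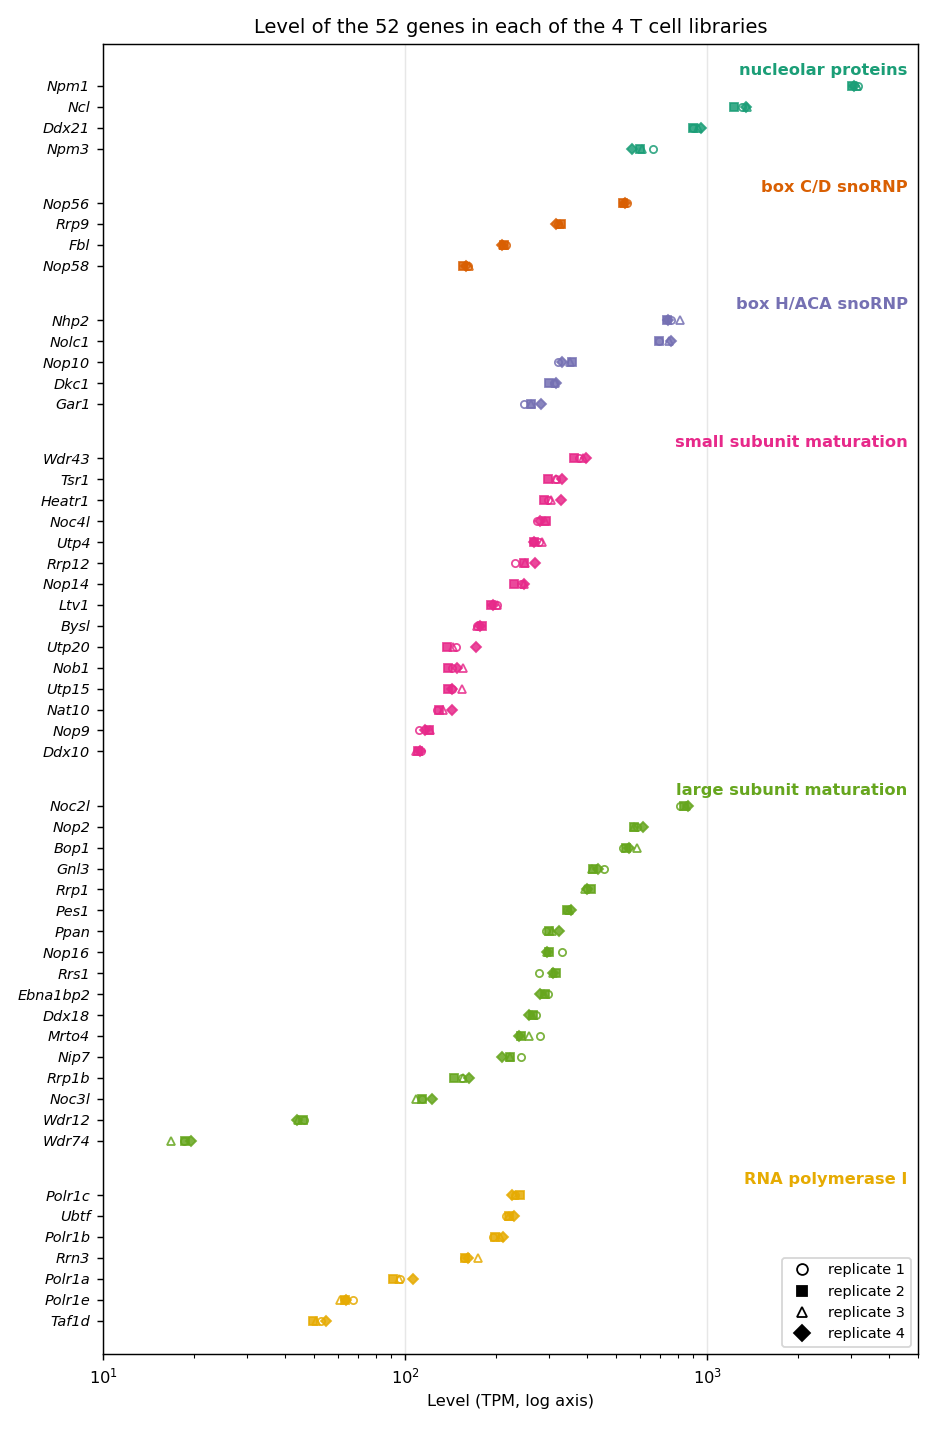
Level in TPM (log axis) of each of the 52 genes in the 4 libraries, grouped by role and ordered by mean level within a group; each symbol is 1 library. The 4 symbols of a gene lie close together beside the range over genes, from Wdr74 at 18.4 TPM to Npm1 at 3088 TPM.

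The nucleolar proteins were the most abundant group and made up 30.8% of the summed level of the 52 genes. Npm1 (ENSMUSG00000057113.13, chromosome 11, 33152287 to 33163206, mm10, as are all coordinates here), which encodes the nucleolar chaperone nucleophosmin, was the highest gene and the 17th highest of all genes counted. Npm1 lay at 3151, 3019, 3130.0 and 3053 TPM in replicates 1 to 4, and alone made 16.1% of the summed level. Ncl (ENSMUSG00000026234.12, chromosome 1, 86344719 to 86359400), which encodes nucleolin, an RNA-binding protein of the nucleolus, followed at 1303, 1225, 1355 and 1343 TPM. The libraries do not overlap between these genes: the lowest Npm1 value was more than the highest Ncl value. Ddx21, a DEAD-box RNA helicase active in RNA polymerase I transcription and precursor processing, stood at 921 ± 27.1 TPM. Npm3, a smaller relative of nucleophosmin, lay at 661, 597, 606 and 562 TPM, highest in replicate 1 and lowest in replicate 4.

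The box C/D snoRNP carries the methyltransferase fibrillarin and the paired scaffold proteins Nop56 and Nop58, and guides 2'-O-methylation of ribosomal RNA. Nop56 was the highest gene of the group at 541, 528, 532 and 535 TPM. Fbl, the gene of fibrillarin, lay at 215, 213, 211 and 209.6 TPM, and Nop58 was lowest at 161, 155, 163 and 159 TPM. Within a gene these libraries differed little: the coefficient of variation of Nop56, 1.03%, was the smallest of the 52. Rrp9, whose product belongs to the U3 snoRNP of the processome, lay at 322 ± 5.82 TPM. In log2 CPM, where CPM is the count scaled to a fixed library total, all 4 genes were lowest in replicate 4. So were 35.1% of coding genes tested within the range of levels of the 52 (18.4 to 3088 TPM) and 29.1% of all genes tested. That range is wide, so its genes are not matched to the 52 in level. The difference of replicate 4 from the mean of the others ranged from -0.0866 to -0.0394 on that scale. In TPM, Fbl and Rrp9 were lowest in replicate 4, but Nop56 and Nop58 were lowest in replicate 2.

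The box H/ACA snoRNP guides the conversion of uridine to pseudouridine through the synthase dyskerin, encoded by Dkc1. Nhp2, the gene of a core protein of this particle, was the highest of the group per exonic length at 759, 736, 814 and 744 TPM. Nolc1, which encodes a snoRNP chaperone of the nucleolus, lay at 722 ± 36.5 TPM. The core genes Nop10, Dkc1 and Gar1 stood lower per exonic length. Nop10 lay at 319, 356, 352 and 331 TPM, Dkc1 at 310.2, 300.0, 314 and 315 TPM, and Gar1, the lowest, at 247, 260.2, 261 and 282 TPM. The libraries of Dkc1 lay below those of Nop10 and above those of Gar1, without overlap. Per coding length the order was another: Nop10, whose coding part is short, came to 652 TPM, Nhp2 to 633 TPM and Dkc1 to 278 TPM. These values divide the counts of all exons, untranslated parts included, by coding bases alone. That raises genes whose coding part is a small share of their exons.

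The 15 small subunit genes had a median level of 198 TPM and all exceeded 100 TPM. Wdr43, of the subcomplex that binds the nascent precursor first, was highest at 376, 362, 389 and 396 TPM. Of other genes of that subcomplex, Heatr1 lay at 305 ± 16.5 TPM, Utp4 at 274 ± 7.79 TPM and Utp15 at 145 ± 6.58 TPM. Nop14 and Noc4l, whose yeast counterparts form a complex, lay near each other. Nop14 stood at 242, 229.5, 248 and 248 TPM and Noc4l at 274, 293, 291 and 280.4 TPM, with no overlap. Utp20 (ENSMUSG00000004356.8, chromosome 10, 88746607 to 88826804), a large scaffold protein of the processome, stood at 147, 138, 145 and 172 TPM. Its value in replicate 4 lay above the others, and its coefficient of variation, 9.94%, was the largest of the 52. Factors that act late on the small subunit ranged from Tsr1 at 315 ± 13.8 TPM and Rrp12 at 249 ± 16.3 TPM to Ltv1 at 198 ± 4.80 TPM, Bysl at 176 ± 3.07 TPM and Nob1, the nuclease that makes the final cut of 18S RNA, at 147 ± 7.09 TPM. Nat10, which acetylates 18S RNA, lay at 133 ± 7.12 TPM and Nop9 at 117 ± 4.38 TPM. Ddx10, a DEAD-box helicase, was lowest at 113, 110.1, 109 and 112 TPM.

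The 17 large subunit genes had a median of 303 TPM, and their means ran from 18.4 to 841 TPM. Noc2l was highest at 812, 836, 849 and 866 TPM, while Noc3l, whose yeast counterpart forms a complex with that of Noc2l, lay at 114, 114, 109 and 122 TPM. Nop2, a methyltransferase of large subunit RNA, lay at 585 ± 18.3 TPM and Gnl3, which encodes the GTPase nucleostemin, at 432 ± 18.7 TPM. Pes1, Bop1 and Wdr12 encode the PeBoW complex, which acts in the maturation of 28S and 5.8S RNA. Bop1 stood at 526, 539.6, 584 and 551 TPM, Pes1 at 343, 344, 349.6 and 354 TPM, and Wdr12 at 46.4, 45.9, 44.3 and 43.8 TPM. The order Bop1, Pes1, Wdr12 held in 4 of 4 libraries. The paralogues Rrp1 and Rrp1b lay at 399, 412, 395 and 399 TPM and at 155, 145, 155 and 163 TPM. Mrto4, a relative of the ribosomal stalk protein P0 that serves during assembly, stood at 278, 242, 256 and 238 TPM, Nip7 at 242, 222, 223 and 209 TPM and Nop16 at 329, 298, 295 and 296 TPM, each highest in replicate 1. Ppan, Rrs1, Ebna1bp2 and Ddx18, of the same pathway, had means of 306, 303, 288 and 264 TPM.

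Wdr74 (ENSMUSG00000042729.10, chromosome 19, 8735827 to 8740624), a large subunit assembly factor, was the lowest of the 52 at 18.6, 18.7, 16.8 and 19.5 TPM. Of its exonic bases 90.7% also belong to exons of a second annotated gene on the same strand, ENSMUSG00000110423.1. The file headers record no option to count pairs that fall on more than 1 gene. That second gene held 2, 17, 0 and 7 counts in replicates 1 to 4. How far the shared exons set the low value of Wdr74 was not tested.

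RNA polymerase I genes had the lowest group median per exonic length, 163 TPM against 198 TPM for the small subunit genes. Per transcript length the small subunit genes were lowest, with 170.2 against 203 TPM, as they were per coding length, with 108 against 115 TPM. Polr1c, a subunit shared with RNA polymerase III, was highest at 230.2, 239.7, 231 and 226 TPM. The catalytic core is formed by the products of Polr1a and Polr1b. Polr1a lay at 95.9, 91.4, 95.3 and 106 TPM and Polr1b at 196, 199, 206 and 211 TPM. Polr1e, the gene of a polymerase-associated subunit, lay at 67.1, 63.3, 60.9 and 63.8 TPM, below both in every library. Of the initiation factors, Ubtf, whose product binds along the ribosomal DNA, lay at 216, 222, 220.4 and 229 TPM and Rrn3, which makes the polymerase competent to start, at 157, 158, 174 and 161 TPM. Taf1d, a subunit of the promoter factor SL1, was the lowest of the group at 52.6, 49.6, 50.7 and 54.9 TPM.

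The level of several genes depended on which length divided the counts. The deposited length covers every exon of every annotated isoform. For 7 of the 52 genes it was more than 2 times the length of the principal transcript. The share of detected coding genes past that ratio was not computed, so this count is not shown to be particular to the 52. The median ratio was 1.14 over the 52 and 1.28 over detected coding genes. Taf1d had 8949 exonic bases and a principal transcript of 1148 bases, and moved from 51.9 to 279 TPM (rank 50 to rank 20 of the 52) when that transcript length was used. Nop58 had 10758 exonic bases against 1713 and moved from 159.6 to 689 TPM, rank 39 to rank 5. Fbl moved from 212 to 513 TPM, rank 34 to rank 9. With transcript length the 4 box C/D genes took ranks 3, 5, 9 and 15, where exonic length gave ranks 10, 39, 34 and 16 to Nop56, Nop58, Fbl and Rrp9. Npm1 and Ncl stayed first and second, and Wdr74 last, under exonic, transcript and coding length. Wdr12, with 11955 exonic bases but 1269 coding bases, ranked 51 under exonic and transcript length and 35 under coding length. The median of the 52 was 241 TPM with transcript length and 185 TPM with coding length.

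**Figure D2:**
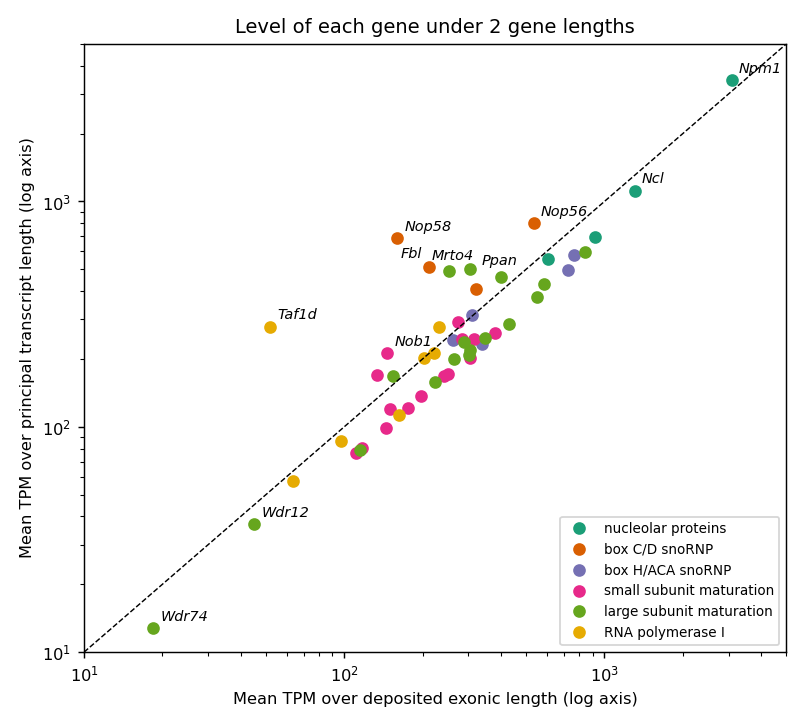
Mean level of each gene (4 libraries) computed over the deposited exonic length (horizontal, TPM, log axis) and over the principal transcript length (vertical, TPM, log axis), coloured by role; the dashed line marks equal values. Taf1d, Nop58 and Fbl lie farthest above the line, at 279, 689 and 513 TPM over transcript length.

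Several of these genes hold snoRNA genes within their own span, so that 1 locus carries both a protein of the machinery and a guide RNA for it. Of the 52 genes 9 held 31 annotated snoRNAs on their own strand (17.3% of the 52), against 180 of 9840 detected coding genes (1.83%). Those 9840 genes were not matched to the 52 in level, and the part of level in this contrast was not tested. Taf1d held 8, Nop56 held 5, Nop58 held 4, Ncl, Wdr43 and Gnl3 held 3 each, Tsr1 and Ppan 2 each, and Dkc1 held 1. The 5 sequences shown here represent the C/D type in 5 of the hosts. They are given 5' to 3' from the GENCODE M21 transcripts, and capitals mark the letters TGATGA within the first 15 bases, the core of box C, and CTGA within the last 15, which is box D. They are Snord110 in Nop56 (chr2:130275506-130275573, plus strand), Snord11 in Nop58 (chr1:59704790-59704873, plus), Gm22858 in Wdr43 (chr17:71641584-71641659, plus), Snord69 in Gnl3 (chr14:31014287-31014366, minus) and Snord82 in Ncl (chr1:86356261-86356330, minus), all outside the exons of their hosts.
Snord110: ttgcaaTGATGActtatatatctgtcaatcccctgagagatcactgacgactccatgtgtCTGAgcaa
Snord11: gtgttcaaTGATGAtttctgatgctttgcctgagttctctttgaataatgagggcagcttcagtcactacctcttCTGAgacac
Gm22858: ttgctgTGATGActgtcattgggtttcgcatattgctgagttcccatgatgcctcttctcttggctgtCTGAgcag
Snord69: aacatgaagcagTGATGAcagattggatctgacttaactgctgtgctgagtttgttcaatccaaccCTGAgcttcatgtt
Snord82: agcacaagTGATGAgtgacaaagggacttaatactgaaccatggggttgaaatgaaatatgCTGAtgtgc
Both sets of letters, searched on the annotated strand, were present in 11 of the 31 nested snoRNAs (35.5%) and in 305 of all 1507 annotated snoRNAs (20.2%).

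Few read pairs were assigned to these snoRNAs. Snord69 held 92, 99, 100 and 89 counts in replicates 1 to 4, the highest total of the 31, whereas Snord110 held 17, 7, 10 and 5 and Snord11 held 6, 4, 5 and 1. Gm22858 held 34, 24, 30 and 20 counts, and Snord82 had none in any library. Of the 14 snoRNAs that lie outside the exons of their host 13 had counts, while none of the 17 that touch a host exon had any. Counts on an intronic snoRNA and on unspliced RNA of its host cannot be told apart in these files, and the loss of pairs shared by 2 genes was not tested.

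The E-box CACGTG, a palindrome that Myc and related factors bind, was searched in the promoters, here 250 bases before to 50 bases after the start in RefSeq (GRCm38.p6). An entry was found for 47 of the 52 genes; Fbl, Rrp12, Npm1, Rrs1 and Bop1 had none. The letters were present in 8 of the 47 (17.0%), in Ltv1, Nop2, Pes1, Rrn3, Tsr1, Utp20, Utp4 and Wdr43, against 12.5% of promoters of detected coding genes and 8.09% of all promoters. Before the start they were found in Nop2 and Rrn3 only among the 47 (4.26%), against 10.5% of detected coding genes. These 3 matches are shown as the upstream examples, each as 60 bases with the E-box in capitals, at chr6:125131796-125131855 (Nop2), chr16:13780457-13780516 and chr16:13780624-13780683 (Rrn3), all on the plus strand.
Nop2: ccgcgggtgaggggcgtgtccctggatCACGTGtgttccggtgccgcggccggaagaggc
Rrn3 distal: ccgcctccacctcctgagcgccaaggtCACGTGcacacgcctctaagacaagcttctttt
Rrn3 proximal: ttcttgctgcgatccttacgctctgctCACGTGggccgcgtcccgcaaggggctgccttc
A match describes these letters in the window and no binding was measured.

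Partner genes of 1 complex, or paralogues, were then compared within each library as differences of log2(TPM + 1). On this scale the added 1 slightly understates differences that involve a low gene. All 16 pairs had the same direction in 4 of 4 libraries. How often pairs of other genes do so was not tested, so the count is not shown to be particular to partners. Each of the 16 had an exact two-sided sign-flip permutation p of 0.125 (0.125 after Benjamini-Hochberg adjustment over the 16 pairs). That is the smallest p that 4 libraries allow, so no pair can pass 0.05 in this design. The scaffold gene Nop56 exceeded Fbl, a difference of -1.33 ± 0.0175 for Fbl minus Nop56 per exonic length, which came to -0.64 per transcript length and -0.47 per coding length. Nhp2 exceeded Dkc1 (Dkc1 minus Nhp2, -1.30 ± 0.0558, -0.88 and -1.18 per exonic, transcript and coding length). Dkc1 exceeded Gar1 by 0.24 ± 0.0735, 0.36 and 0.36 in the same order of lengths. Polr1b exceeded Polr1a, its partner in the catalytic core (Polr1a minus Polr1b, -1.06 ± 0.0620, -1.23 and -0.62). Ubtf exceeded Rrn3 by 0.45 ± 0.0757, 0.92 and 1.09, so that this difference was larger under both other lengths. The SDs cover the spread between libraries and not the choice of length. Each length divides the same counts over all exons, so a value per coding length includes reads from untranslated parts.

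The differences that were largest per exonic length involved Wdr12 and Noc3l. Bop1 exceeded Wdr12 by 3.58 ± 0.0970 and Pes1 exceeded it by 2.92 ± 0.0601, but per coding length these came to 0.54 and 0.50. Noc2l exceeded Noc3l by 2.86 ± 0.0638, and by 2.49 per coding length. Among paralogues, Npm1 exceeded Npm3 by 2.35 ± 0.0774 and Rrp1 exceeded Rrp1b by 1.37 ± 0.0913, and the latter difference was 0.72 per coding length. Nop56 exceeded Nop58 by 1.74 ± 0.0262 per exonic length, by 0.22 per transcript length, and lay below it per coding length (-0.03). Dkc1 minus Nop10 was -0.13 ± 0.0926 per exonic length, 0.42 per transcript length and -1.23 per coding length. The sign of the other 14 pairs was the same under the 3 lengths. Pes1 minus Bop1 was -0.66 ± 0.0547 per exonic length but -0.046 per coding length, which is smaller than its SD of 0.0545 between libraries. Npm1 minus Ncl was 1.24 ± 0.0545, 1.63 and 0.58 per exonic, transcript and coding length. Nop14 minus Noc4l was -0.23 ± 0.0827, -0.54 and -0.89. Polr1b minus Polr1e was 1.65 ± 0.0924, 1.81 and 0.85, so these 3 kept their sign while their size moved.

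**Figure D3:**
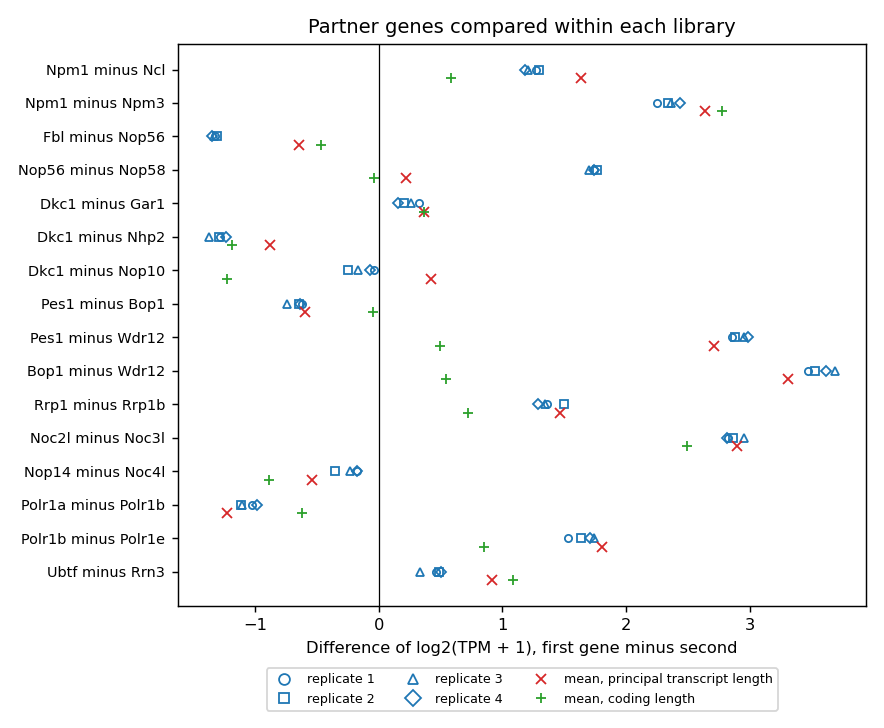
Difference of log2(TPM + 1) between partner genes, first minus second: blue symbols are the 4 libraries with exonic length, the red cross and green plus are the means with principal transcript and coding length, and the vertical line marks no difference. All 4 libraries lie on 1 side for each of the 16 pairs, and the red cross of Dkc1 minus Nop10 (0.42) and the green plus of Nop56 minus Nop58 (-0.03) lie on the other side.

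For none of the 52 genes did the test find more variation between the replicates than the trend of genes of its level. The spread of each gene was tested with edgeR's quasi-likelihood fit, as its residual dispersion against the trend over all genes. Of the 52 genes 0 passed an adjusted p of 0.05, where 0.228% of all genes tested did (28 of 12285). At so low a share, 0 calls among 52 genes does not set them apart. DESeq2's dispersion outliers also included 0 of the 52. An unadjusted p under 0.05 was found for 0 of the 52, against 5.42% of all genes. That count rose to 3 with no count filter and without replicate 4. Utp20 had the lowest p, 0.0528 (adjusted p = 0.922, edgeR). The median SD of log2 CPM over the 4 libraries was 0.0534 for the 52 genes and 0.102 for all genes tested. It was 0.0697 for the 6407 coding genes within the same range of levels, which were not matched to the 52 in level.

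The 5 genes with the largest SD were Utp20 at 0.117, Mrto4 at 0.115, Npm3 at 0.113, Nip7 at 0.106 and Nop16 at 0.0891 on the log2 CPM scale. On that scale Utp20 was highest in replicate 4, and the other 4 genes were highest in replicate 1 and lowest in replicate 4. The smallest SDs belonged to Pes1, at 0.00865, to Ubtf, at 0.0194, and to Dkc1, at 0.0206. These 3 genes act in different steps, the large subunit, transcription and pseudouridylation.

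**Figure D4:**
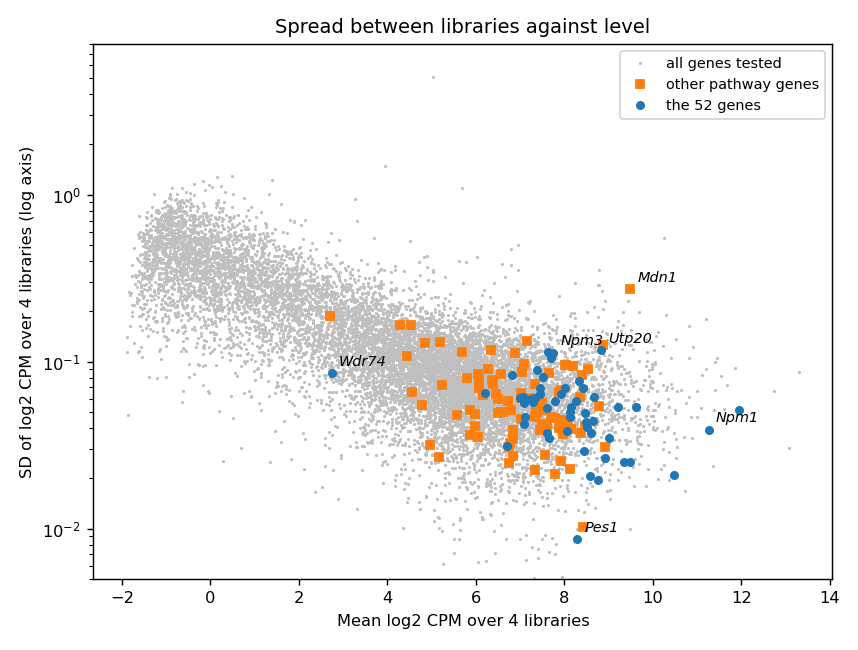
SD of log2 CPM over the 4 libraries (vertical, log axis) against mean log2 CPM (horizontal) for all 12285 genes tested (grey), the 52 genes (blue circles) and 88 other genes of the pathway (orange squares). The blue circles lie in the lower part of the grey cloud, with a median SD of 0.0534, and Mdn1 lies above it.

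Replicate 4 differed from the mean of the other libraries with gene length. Replicate 2 went the opposite way among coding genes within the range of levels of the 52. There the median deviation from the mean of the 4 libraries, above 5000 exonic bases, was 0.0392 log2 CPM in replicate 4 and -0.0248 in replicate 2. Under 2000 bases it was -0.0720 and 0.0508. The replicate 4 differences below are taken from a mean that includes replicate 2. By log2 CPM, 15 of the 52 genes were highest in replicate 4 (28.8%) and 21 were lowest there (40.4%). Highest there were 30.0% of all genes tested, 30.8% of coding genes within the range of levels of the 52 and 18.2% of other pathway genes. Lowest there were 29.1%, 35.1% and 37.5% in the same order. Of the 12 genes with more than 5000 exonic bases 8 were highest in replicate 4 (66.7%) and 6 were lowest in replicate 2. Highest in replicate 4 were 52.4% of coding genes of that length within the range of levels of the 52. Of other pathway genes of that length, 36.4% (8 of 22) were. In the same sets 33.9% and 40.9% were lowest in replicate 2. Polr1a, with 11871 bases, stood 0.13 above the mean of the other replicates, Utp20, with 10199 bases, 0.22 above, and Npm3, with 1187 bases, at -0.19 on the same log2 scale. Across genes, Pearson's r between log2 exonic length and the replicate 4 difference was 0.447 over the 52 genes. It was 0.484 over 88 other genes of the pathway and 0.454 over the 6407 coding genes within the range of levels of the 52. These are descriptions over genes of the same 4 libraries, and genes are not independent replicates. Library preparation, RNA integrity and a difference between samples cannot be told apart here.

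**Figure D5:**
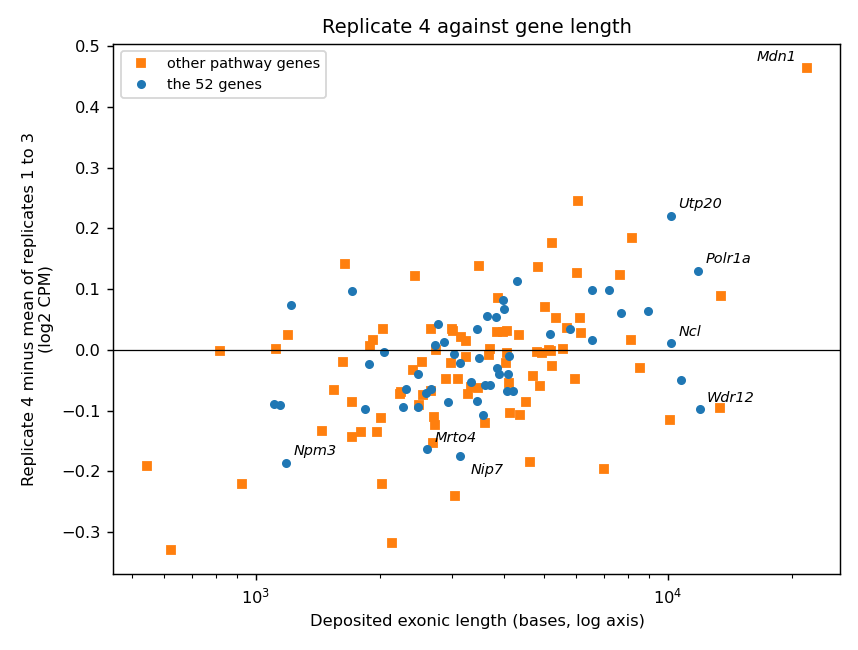
Difference of replicate 4 from the mean of replicates 1 to 3 (vertical, log2 CPM) against deposited exonic length (horizontal, bases, log axis) for the 52 genes (blue circles) and 88 other genes of the pathway (orange squares). Long genes such as Utp20 (0.22) and Polr1a (0.13) lie above 0 and short ones such as Npm3 (-0.19) below, while Wdr12, also long, lies at -0.10.

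Of 89 further genes of the pathway 88 were matched, and Riok2 was not analysed here. Every one of the 88 was detected; their median level was 138 TPM and 56 reached 100 TPM. Among the other small subunit factors Imp3, a U3 snoRNP protein, was highest at 431 ± 26.2 TPM, followed by Pno1 at 328 ± 8.64 TPM, and Utp14b was lowest at 9.47 ± 0.841 TPM. Among the other large subunit factors Rsl1d1 lay at 651 ± 21.2 TPM, Eif6, which keeps the large subunit from joining the small one too early, at 421 ± 19.1 TPM, and Nvl, an AAA ATPase, lowest at 32.4 ± 1.56 TPM. The AAA ATPases Ruvbl2 and Ruvbl1, which take part in snoRNP assembly, lay at 408 ± 11.7 and 203 ± 6.28 TPM, and Shq1, a chaperone of dyskerin, lay lowest of its list at 24.8 ± 1.68 TPM. Polr2f and Polr2e, subunits common to all 3 nuclear RNA polymerases, lay at 505 ± 33.4 and 261 ± 4.79 TPM, and the TATA-binding protein gene Tbp lay lowest at 11.9 ± 0.246 TPM.

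Of the 88 genes 1 passed the edgeR spread test and 3 had an unadjusted p under 0.05, beside the shares of 0.228% and 5.42% over all genes. That gene was Mdn1 (ENSMUSG00000058006.12, chromosome 4, 32657119 to 32775217), which encodes a very large AAA ATPase that strips factors from the large subunit precursor. Mdn1 lay at 113, 101, 89.9 and 143 TPM, highest in replicate 4 and lowest in replicate 3, with an edgeR adjusted p of 0.0182. It has 21836 exonic bases, and stood 0.46 above the mean of the other replicates in replicate 4 (log2 CPM); the part of length in this was not tested. The call was lost without replicate 3 (adjusted p = 0.586), without replicate 4 (0.11) and without edgeR's robust option (0.0949).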

How the data were processed

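RNA was sequenced from 4 T cell libraries of 1 group. The assay is named total RNA-seq in the labels, but the protocol they link is named for polyA+ RNA, and which applies was not settled. The files the authors deposited hold unnormalized counts, 1 per gene and library. Per the file headers, featureCounts 1.4.6-p4 summed pairs over the exons of each GENCODE M13 gene, reverse-stranded (setting 2), with both mates required; the alignments came from STAR, version not given in the sources used here. The build is mm10 per the labels. Genes with near-identical copies, Npm1 among them through its pseudogenes, are uncertain, since the headers record no option for pairs that map to several places.

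Symbols came from GENCODE M21 (50376 of 50600 identifiers matched). TPM was computed from counts over the deposited exonic length, and alternatively over the length of the principal M21 transcript and of its coding part. The counts were those over all exons each time. The spread test used edgeR 4.0.16 under R 4.3.3: TMM, filterByExpr, a robust quasi-likelihood fit with an intercept only, and an F test of each residual dispersion against the trended prior (Benjamini-Hochberg over 12285 genes), and DESeq2 1.42.0 was an alternative. On simulated data with 12285 genes, the test called 48 of 100 genes given extra spread of 0.5 log2 units (SD), 91 of 100 given 1 unit, and 4 of 12031 left unchanged. Partner differences were tested by exact sign-flip permutation. SDs of log2 CPM used a prior count of 2. Python 3.11.15, numpy 2.4.6, pandas 2.3.3 and matplotlib 3.10.9 were used.

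The genes, lists, pairs and rules were chosen with earlier results of these data known. Named with values in every library were, by rule, the highest and lowest gene of each role, partner genes, genes past the threshold, and the 5 largest and 3 smallest SDs; of other pathway genes, the 2 highest and the lowest of each list are given by mean and SD, and any past the threshold by library. Ppan, Rrs1, Ebna1bp2 and Ddx18 and similar genes are given by their mean. The result of 1 further marker list is not reported here.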

Additional observations from a re-analysis of the deposited data

Results flagged for a closer look

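Of the 52 genes 1 had a library that stood apart from the other 3 in TPM, the only scale examined for this. Nop16, a large subunit factor, lay at 329 TPM in replicate 1 and between 295 and 298 TPM in the other 3 libraries, so that the gap to the nearest library took 0.891 of the whole range. In log2 CPM Nop16 lay at 7.51, 7.38, 7.34 and 7.31 in replicates 1 to 4, so that replicate 1 stood less apart on that scale. Chance flags about 1 in 20 groups of this size, and 52 genes were examined.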

How the results depend on the processing

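The count of 52 detected genes held at floors of 5 and 10 TPM, without each replicate in turn (52 to 52) and with TPM over nuclear coding genes. Under each alternative run 0 of the 52 passed the spread test (0 to 0 with 1 replicate left out), while 0 to 3 of them had an unadjusted edgeR p under 0.05. The count of 3 arose with no count filter, beside 1225 of 20867 genes tested, and without replicate 4, beside 680 of 12498. Over all genes the count past the threshold was 142 with no count filter, 15 without the robust option and 62 by DESeq2's dispersion outliers, and it ranged from 14 (without replicate 3) to 27 with 1 replicate left out, against 28. Of the other pathway genes 0 passed without the robust option, and 0 to 1 with 1 replicate left out, 0 without replicate 3 and without replicate 4. The median SD of the 52 ranged from 0.0421 to 0.0509 with 1 replicate left out. In log2 CPM, with no length, Npm1 minus Ncl turned to -0.69, Dkc1 minus Nhp2 to 0.55 and Dkc1 minus Nop10 to 1.75, since the division by length was dropped, and 15 of 16 pairs, in place of 16, had 1 direction in 4 of 4 libraries: Polr1a minus Polr1b came to -0.03 ± 0.0625 with mixed signs. Lengths chosen after seeing the data turned Dkc1 minus Nop10 to 0.42 (principal transcript) and Nop56 minus Nop58 to -0.035 (coding length). Genes highest in replicate 4 numbered 12 of 46 without those sharing exons on the same strand, against 15 of 52. This was also an alternative chosen after seeing the data. Leaving out a replicate or adding 0.1 instead of 1 turned 0 of the 16 pairs. No paired comparison between groups was possible because all libraries belong to a single group. Counting error is largest for genes of low count.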
